A study of Mus musculus with 6 samples.

Results

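A set of 31 mouse genes, listed as podocyte-enriched or foot process genes, was followed in glomeruli that lack alpha-parvin in podocytes. The set leaves out the nephrin slit diaphragm complex and the podocyte transcription factors. Members were chosen by symbol, with earlier results of these data known, and were matched to the NCBI Gene identifiers of the normalised counts table, and kept at a mean of at least 10 normalised counts over the 6 libraries. All 31 were found and all 31 passed that minimum, out of 13946 genes that passed it and 27179 in the table. Anln lay nearest to the minimum, at a mean of 31.7, and no member lay below it.

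Podocytes are the epithelial cells that wrap the glomerular capillaries. Their interlocking foot processes hold a contractile actin cytoskeleton, are bridged by slit diaphragms, carry a negatively charged glycoprotein coat and are anchored to the basement membrane by integrins and dystroglycan. Alpha-parvin, the product of Parva, links integrin-linked kinase to actin at these anchors. Mutations in several members (PLCE1, TRPC6, MYO1E, PTPRO and ANLN) cause hereditary proteinuric kidney disease in people. The proteins of Pla2r1 and Thsd7a are among the target antigens of autoantibodies in membranous nephropathy.

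RNA of whole glomeruli, captured on magnetic beads perfused through the kidneys, was sequenced from 6 male mice of a mixed C57BL/6 strain at 9 weeks of age, and the protocol that both groups share speaks of mild proteinuria. The KO group, KO-1 to KO-3, was Parva-fl/fl with the hNPHS2Cre transgene, in which a human promoter active in podocytes drives Cre. The WT group, WT-1 to WT-3, was Parva-fl/fl without Cre, so that every mouse carried the floxed alleles, and no group with Cre alone was used here. Cells other than podocytes keep Parva in this model. The comparison asks which podocyte transcripts differ when the gene is lost from podocytes. Each title names a separate sample, and p-values measure the spread between these libraries.

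Depth was 11886828 to 20552984 whole reads per library. A set of 10 genes, no member among them, were each counted almost wholly in a single library. They held 30.1%, 17.4% and 32.4% of the reads in WT-1 to WT-3. In KO-1 to KO-3 they held 28.5%, 0.241% and 0.239%. KO-2 and KO-3 thus stood apart from KO-1 and from the WT libraries, and the cause was not tested. Parva itself stood between 6585 and 7889.8 normalised counts in WT and between 1942 and 2338 in KO. The podocyte markers Nphs1 (12338 to 20698) and Wt1 (4171 to 10285) were abundant in every library. Markers of proximal tubule cells were present too and were uneven, with a mean log2 level of 12.53, 11.36 and 11.33 in the WT libraries and 12.91, 13.47 and 13.34 in KO. Values of single libraries are listed in the order 1 to 3 throughout. In whole glomeruli, fewer podocytes and less RNA per podocyte cannot be told apart.

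Of the 31 genes, 6 fell in KO, 1 rose and 24 did not pass the test. Those that fell were Ddn, Thsd7a, Rhpn1, Sulf1, Pla2r1 and Plce1, and Cdh3 rose. The test was limma on log2(normalised count + 1), adjusted by Benjamini-Hochberg over all genes tested, at a threshold of 0.05. In that fit 8.58% of all genes were called lower and 13.5% higher. The members' share called lower was 19.4%, in a set whose choice was not independent of these data. The median log2 fold change of KO against WT, called log2 change from here on, was -0.35 over the members, beside -0.006 over all genes tested, with 23 members negative and 8 positive. In 11 members every KO library lay below every WT library, which held for 21.9% of all genes, and in 1 member every KO library lay above, which held for 23.2%. For these 12 members a two-sided exact permutation test over the libraries gave p = 0.1, which is the smallest that this design can give. The members' summed level was 270021 ± 22397 normalised counts in WT and 207393 ± 29580 in KO (SD, n = 3).

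The 7 genes that passed are placed here by their spans in GRCm38.p6. The RefSeq gene model places Ddn at chr15:98803782-98807925 (minus strand), Thsd7a at chr6:12311608-12749253 (minus strand), Rhpn1 at chr15:75704246-75714419 (plus strand) and Sulf1 at chr1:12692197-12861192 (plus strand). It places Pla2r1 at chr2:60417543-60553326 (minus strand), Plce1 at chr19:38481034-38785105 (plus strand) and Cdh3 at chr8:106510852-106556911 (plus strand).

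**Figure D1:**
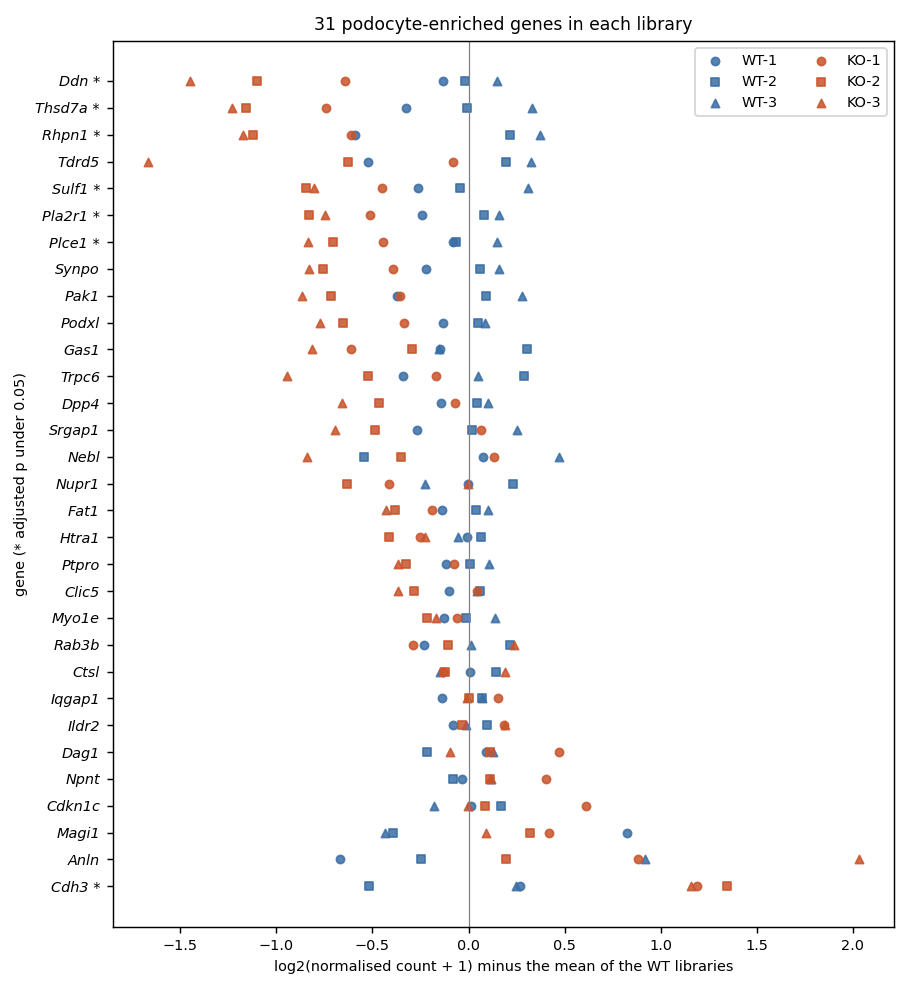
Each row is a gene, ordered by fold change, and each point a library, blue for WT and orange for KO, on log2(normalised count + 1) minus the WT mean. Of the 31 genes, 23 have a negative fold change, and KO-1 (orange circle) is the highest KO library in 23 of 31.

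The calls depended on single libraries. Without WT-1, limma called 10 members lower and 2 higher (12.1% and 18.6% of all genes). Without KO-1 it called 7 lower and 1 higher (5.61% and 9.18%). Without WT-2, WT-3, KO-2 or KO-3 it called 0 members in either direction. At an unadjusted p under 0.05, 10, 9, 8 and 10 members were lower in that order, and 1, 2, 2 and 1 higher. Over both directions, 3940 of 13968, 4053 of 13925, 4018 of 13959 and 4920 of 13887 genes tested had such a p. All genes called in those fits were 0% lower and 0.00716% higher, 0% and 0%, 0.0143% and 0.0143%, and 0.0072% lower and 0.0144% higher, in the same order. limma without a variance trend also called 0 members (0% of all genes lower, 0.00717% higher). There 12 members were lower and 1 higher at an unadjusted p under 0.05, beside 5305 of 13946 genes over both directions. WT-1 was the lowest WT library in all 6 of the genes that fell, and KO-1 the highest KO library in all 6, beside 38.2% and 29.7% of all genes tested. Among pairs of a WT and a KO library, WT-1 and KO-1 therefore lay closest to each other in these genes, and they did so in the mean of the proximal tubule markers as well.

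Among the actin scaffolds and motors of the foot process, 1 of 6 fell. Ddn encodes dendrin, a cytoplasmic protein that binds the slit diaphragm and can move to the nucleus of injured podocytes. It had 7659, 8299.6 and 9309 normalised counts in WT and 5381, 3921 and 3075 in KO. No KO library reached the lowest WT library. Its mean went from 8422 ± 832 to 4126 ± 1167 (SD, n = 3). The log2 change of -1.06 (SE 0.20, limma adjusted p = 0.0286) was the most negative of the 31.

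Synpo encodes synaptopodin, the actin-bundling protein by which foot processes are often stained. It had 27954, 33903 and 36361 normalised counts in the WT libraries and 24821, 19274 and 18319 in the KO libraries. The groups did not overlap, yet Synpo did not pass in limma (log2 change -0.66, SE 0.21, adjusted p = 0.0583). It did not pass in edgeR (adjusted p = 0.0718) and passed in DESeq2 (adjusted p = 0.00213), in limma with a robust prior (0.0391), in limma with a minimum mean of 50 (0.046) and in limma without WT-1 (0.0281). With the 10 single-library genes left out, an alternative chosen after seeing the data, limma gave an adjusted p of 0.0513.

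The other 4 genes of this group did not pass. Anln, the actin- and septin-binding protein anillin, was low and scattered, at 10.9, 14.8 and 34.6 in WT and 33.7, 20.6 and 76.0 in KO, and its groups overlapped (log2 change 1.04, SE 0.58, limma adjusted p = 0.219). Clic5, a chloride intracellular channel protein that links the membrane to ezrin and actin, was at -0.20 with a 95% interval of -0.58 to 0.17. Myo1e, a membrane-binding myosin motor, was at -0.15 (-0.40 to 0.10). The nebulin relative Nebl was at -0.35 (-1.10 to 0.39).

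**Figure D2:**
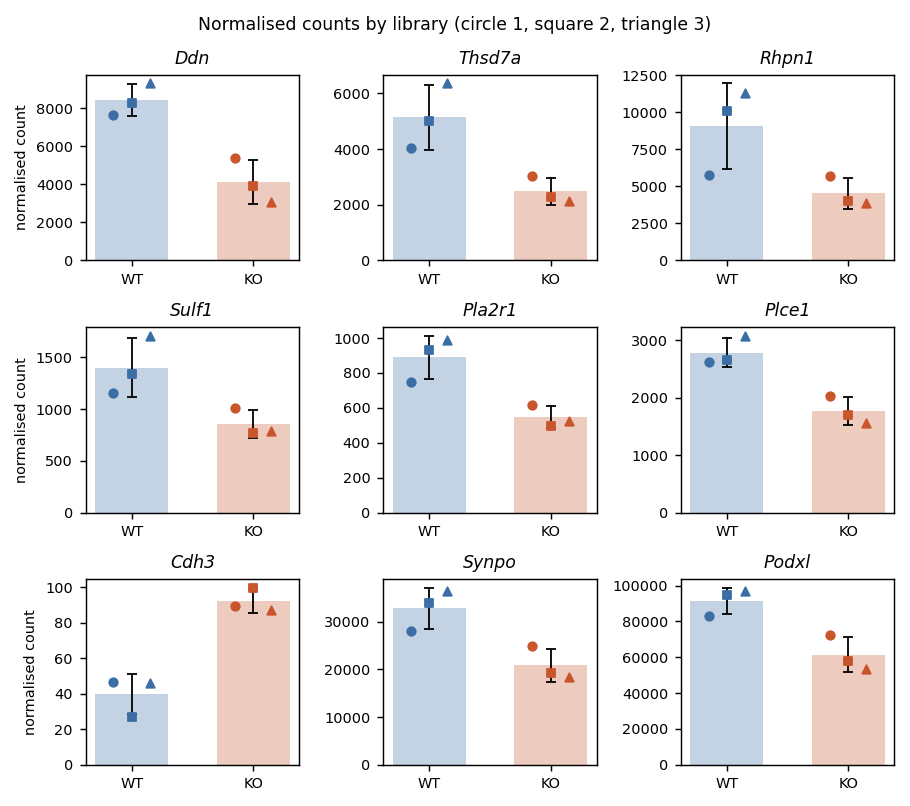
Normalised counts of the 7 genes that passed the test, and of Synpo and Podxl, which did not. Bars are group means, error bars the SD of 3 libraries and points the single libraries; KO lies below WT without overlap in each panel other than Cdh3, where it lies above.

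In the group of small GTPase signalling, Rhpn1 fell. Rhpn1 encodes rhophilin-1, a protein that binds a small GTPase and is needed for normal foot processes in mice. Its WT libraries differed, with 5786 in WT-1 against 10124 and 11278 in the other WT libraries, and KO stood at 5700.1, 4002 and 3861. KO-1 and WT-1 were thus nearly level, and the groups are separate by that small gap. The log2 change was -0.97 (SE 0.27, limma adjusted p = 0.0447). In a fit with the mean of the proximal tubule markers as covariate it was 0.21. In that fit the limma adjusted p was 0.9996 or above for each member.

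Pak1, a kinase activated by Rac and Cdc42, had 3459, 4769 and 5435 in WT and 3493, 2723 and 2452 in KO. KO-1 lay just above WT-1, so the groups overlapped, and the gene did not pass (log2 change -0.65, SE 0.20, limma adjusted p = 0.0552). It passed without WT-1 (limma adjusted p = 0.00878), without KO-1 (0.0493) and in DESeq2 (0.0147). Srgap1, a GTPase-activating protein of the Slit and Robo pathway, was at -0.37 with a 95% interval of -0.87 to 0.13. The vesicle GTPase Rab3b was at -0.05 (-0.44 to 0.34). Iqgap1, a scaffold that binds nephrin, actin and Cdc42, was at 0.05 (-0.19 to 0.29).

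Of 7 surface glycoproteins, receptors and proteases, Thsd7a and Pla2r1 fell and 5 did not pass. Thsd7a, a large membrane protein with thrombospondin repeats, had 4031, 5026 and 6361 in WT and 3026, 2267 and 2151 in KO. All KO libraries were below all WT libraries (log2 change -1.04, SE 0.20, limma adjusted p = 0.0286). Pla2r1, the M-type phospholipase A2 receptor, had 747, 932 and 987 in WT and 619, 496 and 526 in KO. Its mean went from 889 ± 125 to 547 ± 64.3 (SD, n = 3), with a log2 change of -0.70 (SE 0.14, limma adjusted p = 0.0286), again with no overlap. Thsd7a and Pla2r1, named above as genes of membranous nephropathy antigens, were therefore both among the 6 that fell. Which glomerular cells gave the reads of these genes was not tested.

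The promoters of these antigen genes are shown because both genes fell and both have a RefSeq entry, as the 250 bases before the start that the promoter table gives in GRCm38.p6, on the gene's own strand. For Pla2r1 that start lies slightly inside the full gene span given above, and distances are counted from it. Capitals mark the motif GNGTGGGNG, a core bound by WT1 and related EGR zinc-finger proteins, on either strand.
Thsd7a, chr6:12749254-12749503, minus strand: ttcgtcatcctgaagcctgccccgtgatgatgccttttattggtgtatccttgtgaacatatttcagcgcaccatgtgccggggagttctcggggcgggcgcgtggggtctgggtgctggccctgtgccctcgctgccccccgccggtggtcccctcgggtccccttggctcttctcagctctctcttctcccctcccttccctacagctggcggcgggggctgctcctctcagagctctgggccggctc
Pla2r1, chr2:60553309-60553558, minus strand: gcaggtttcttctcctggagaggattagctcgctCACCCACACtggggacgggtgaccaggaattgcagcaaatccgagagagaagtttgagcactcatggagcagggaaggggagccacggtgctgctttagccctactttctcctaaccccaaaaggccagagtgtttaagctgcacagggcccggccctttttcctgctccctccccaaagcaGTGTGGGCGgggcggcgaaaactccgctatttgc
The Pla2r1 window held 2 matches, beginning 216 and 34 bases before the start, and the Thsd7a window held none. Of the 31 members, 24 had an entry in the RefSeq promoter table, with 31 windows in all. GNGTGGGNG lay in 7 of these 31 windows (22.6%), those of Anln, Dag1, Fat1, Gas1, Magi1, Pla2r1 and Tdrd5, and in 12.7% of all 32851 windows of the same length. The homeodomain core TAATTA (4.84% of all windows) and the forkhead core TGTTTAC (3.17%) were in 0 of the 31, searched on both strands, so that no kinds of match overlapped there. The median GC content was 58.8% in the members' windows and 52.4% in all windows. The motif is a match of letters. Of the members that fell, 3 had a window and 1 of these, Pla2r1, held GNGTGGGNG, while Ddn, Rhpn1 and Sulf1 had no entry. The other members that hold it did not pass.

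Podxl encodes podocalyxin, the sialic acid-rich coat protein that keeps foot processes apart. It had 83289.5, 94564 and 96785 normalised counts in WT and 72295, 58127 and 53537 in KO. The groups did not overlap, but the gene did not pass in limma (log2 change -0.59, SE 0.29, adjusted p = 0.178) or in edgeR (0.206). It passed in DESeq2 (adjusted p = 0.00217). Ptpro, the receptor tyrosine phosphatase GLEPP1 of the apical membrane, had 7939, 8636 and 9268 in WT and 8148, 6868 and 6675 in KO. KO-1 lay inside the WT range, and the log2 change was -0.26 (SE 0.13, limma adjusted p = 0.179).

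Dpp4, a membrane peptidase that tubule brush borders also carry, had 8586, 9786 and 10198 in WT and 9037, 6885 and 6010.05 in KO. Again KO-1 lay inside the WT range (log2 change -0.40, SE 0.17, limma adjusted p = 0.129). Gas1, a lipid-anchored growth arrest protein and hedgehog co-receptor, had 2033, 2779 and 2023 in WT and 1473, 1839.6 and 1281 in KO, without overlap (log2 change -0.57, SE 0.17, limma adjusted p = 0.0545). The immunoglobulin-like receptor Ildr2 was at 0.11, with a 95% interval of -0.15 to 0.37.

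Cdh3 was the member that rose, and it belongs to the group of adhesion, junction and matrix attachment. It encodes P-cadherin, a cell-cell adhesion protein of several epithelia that has been described at the slit diaphragm. Its level was low, at 46.7, 26.7 and 46.1 in WT and 89.5, 99.6 and 87.3 in KO. The means were 39.8 ± 11.4 and 92.1 ± 6.56 (SD, n = 3), with a log2 change of 1.23 (SE 0.26, limma adjusted p = 0.0287). Parietal epithelial markers moved the same way in these libraries: of 7 markers 4 rose, and their summed level was 762 to 1654 in WT and 2287 to 3235 in KO. Tubule markers moved that way too, with 19 of 20 proximal tubule markers and 3 of 10 distal nephron and collecting duct markers called higher. In the fit with the mean of the proximal tubule markers as covariate, the log2 change of Cdh3 was 0.77. The part of other epithelia in the Cdh3 counts was not tested.

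The other 4 genes of this group did not pass, and their log2 changes ran from -0.33 to 0.28. Fat1, a giant protocadherin, was at -0.33 (95% interval -0.58 to -0.08, limma adjusted p = 0.0601) with no overlap of the groups. Magi1, a junction scaffold, was at 0.28 (-0.50 to 1.06) and was called higher without WT-1 (log2 change 0.69, limma adjusted p = 0.0169). Dag1, which encodes both dystroglycan chains and so the laminin receptor of the basal membrane, was at 0.16 (-0.24 to 0.56). Npnt, the matrix ligand nephronectin that binds integrin alpha-8, was at 0.21 (-0.10 to 0.52).

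Both genes of the calcium and phospholipase group had negative fold changes, and 1 of them passed. Plce1, phospholipase C epsilon, had 2626, 2651 and 3081 in WT and 2038, 1702 and 1559 in KO. Every KO library was below the WT libraries, which were close together (2786 ± 256 against 1766 ± 246, SD, n = 3), and the log2 change was -0.66 (SE 0.13, limma adjusted p = 0.0286). Trpc6, a calcium-permeable channel of the foot process, was low, at 102, 158 and 134 in WT and 115, 89.9 and 66.9 in KO. Its groups overlapped through KO-1 (log2 change -0.54, SE 0.25, limma adjusted p = 0.15).

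Of the 3 secreted and lysosomal enzymes, Sulf1 fell. This enzyme trims sulfate groups from extracellular heparan sulfate and so alters growth factor binding. It had 1153, 1339 and 1712 in WT and 1009.97, 769.8 and 790.4 in KO, without overlap (log2 change -0.70, SE 0.17, limma adjusted p = 0.0329). The secreted protease Htra1 was at -0.30 (95% interval -0.55 to -0.05, limma adjusted p = 0.0817), also without overlap. Ctsl, a lysosomal protease that can cleave cytoskeletal proteins in injured podocytes, had 11714, 12855 and 10489.9 in WT and 10638, 10716 and 13282 in KO. These ranges overlapped almost wholly (log2 change -0.02, 95% interval -0.37 to 0.33).

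None of the 3 nuclear and RNA-granule proteins passed in limma. Tdrd5, a tudor-domain protein of germ cell granules whose transcript is also found in podocytes, had 2146, 3539 and 3873 in WT and 2923, 2001 and 972 in KO, which ran apart. KO-1 lay inside the WT range (log2 change -0.79, SE 0.40, limma adjusted p = 0.185). Nupr1, a stress-induced chromatin protein, had 3199, 3764 and 2739.96 in WT and 2404, 2067 and 3202 in KO (log2 change -0.35, SE 0.19, limma adjusted p = 0.197). Cdkn1c, the cell cycle inhibitor p57 that marks mature podocytes, was at 0.23 (95% interval -0.27 to 0.73). Its KO-1 library stood at 28764, above all WT libraries (16646 to 21174), while KO-2 and KO-3 stood at 19967 and 18806.

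A p above the threshold does not show that a gene held its level, so the intervals are given. Of the 24 members that did not pass, 16 had a 95% interval inside a log2 change of 1 in either direction. For 5 of them, Myo1e, Rab3b, Ctsl, Iqgap1 and Ildr2, it lay inside 0.5. Among the 24, 17 fold changes were negative and 7 positive, and in 5 (Synpo, Podxl, Gas1, Fat1 and Htra1) every KO library lay below every WT library.

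DESeq2, fitted to the reads recovered from the table, called 12 members lower and 1 higher, beside 10.5% and 16.8% of all genes. The 6 calls it added were Synpo, Podxl, Pak1, Gas1, Fat1 and Htra1. edgeR called 6 lower and 1 higher, beside 8.25% and 12.1% of all genes, and these were the 7 members called in limma.

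Levels of the members spanned a wide range when set per length. On normalised counts per kb of merged exons (GENCODE M21), Podxl had the highest WT mean at 16681, followed by Cdkn1c at 9288 and Synpo at 3434. The WT ranges of these 3 did not overlap. Htra1 (2412 to 2626), Ddn (2026 to 2462) and Rhpn1 (1345 to 2621) came next, with ranges that overlapped. The lowest were Anln at 2.22, Cdh3 at 9.09, Magi1 at 17.6, Nebl at 20.8 and Trpc6 at 26.0. The genes that fell lay at WT means from 92.4 (Pla2r1) to 2228 (Ddn) per kb. In KO the mean of Cdkn1c was 11041, and that of Podxl 11173.

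**Figure D3:**
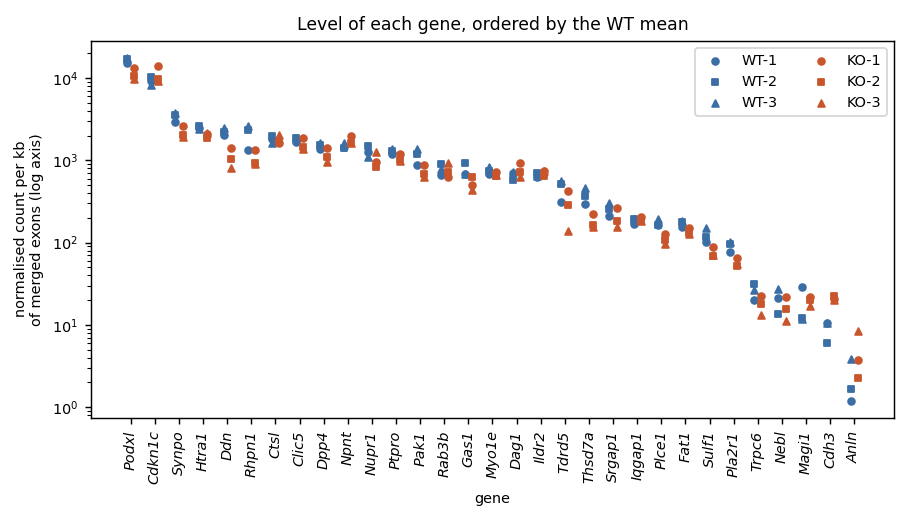
Normalised counts per kb of merged exons, on a log axis, for each of the 31 genes and 6 libraries, ordered by the WT mean. Podxl is the highest at a WT mean of 16681 and Anln the lowest at 2.22.

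Of 26 other podocyte genes measured, 12 fell, 14 did not pass and none rose. Of 10 measured slit diaphragm genes and anchors, 5 fell and none rose, with a median log2 change of -0.45. Magi2 was at -0.60, the kinase Fyn at -0.58 and the adaptor Nck1 at -0.51 (limma adjusted p = 0.0289, 0.0304 and 0.0304). Nphs1, which encodes nephrin, did not pass (-0.32, limma adjusted p = 0.265). Of 9 transcription factors, 6 fell and none rose, with a median of -0.60, among them Wt1 (-0.92) and Foxc2 (-0.85), with limma adjusted p of 0.0286 and 0.0286. Of 7 basement membrane chains and integrins, the laminin chain Lama5 alone fell (-0.42, limma adjusted p = 0.0381). Itga3 was at -0.32 and Col4a4 at 0.35 (limma adjusted p = 0.109 and 0.116), and the median was -0.20.

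Among lists of other cell types, calls were lower for glomerular endothelial and mesangial markers and higher for proximal tubule and parietal epithelial markers. Of 15 glomerular endothelial markers 13 fell, and of 10 mesangial markers 8 fell, with medians of -0.67 and -0.68. Of 20 proximal tubule markers 19 rose, with a median of 1.52, and their summed level ran from 115614 to 259990 in WT and from 296879 to 452237 in KO. Of 10 distal nephron and collecting duct markers 3 rose (median 1.32). No proximal tubule marker was at 0 in any library. Of 9 measured leukocyte markers none passed (median 0.48), and their sum was 5064 in KO-3 against 1199.5 to 1952 elsewhere. In limma with the proximal tubule mean as covariate, 0 members and 0% of all genes were called in either direction. In that fit 1 member had an unadjusted p under 0.05, as did 406 of 13946 genes, and the median of the members was 0.05. The 6 that fell were there at -0.59 (Ddn), -0.39 (Plce1), -0.32 (Thsd7a), -0.18 (Pla2r1), -0.10 (Sulf1) and 0.21 (Rhpn1). The tubule marker level moved with genotype, and the pair cannot be told apart in these 6 libraries.

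**Figure D4:**
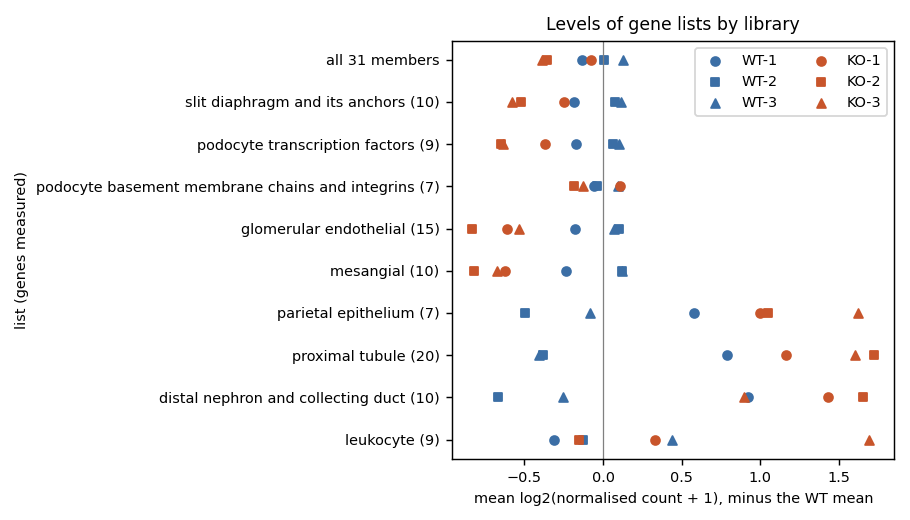
Mean log2(normalised count + 1) of each gene list in each library, minus the mean of the WT libraries. Proximal tubule markers are higher in all KO libraries than in any WT library (12.91 to 13.47 against 11.33 to 12.53), while the mean of the 31 members in KO-1 (11.41) lies inside the WT range (11.35 to 11.61).

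To compare the members with the podocyte signal of the same library, the libraries were set to an equal mean log2 level of 5 slit diaphragm genes, none of them members. That mean was 12.72, 12.99 and 13.06 in WT and 12.69, 12.39 and 12.24 in KO. This scaling moved the median of all genes to 0.47, and all values here are to be read against it. The split of calls changed from 6 lower and 1 higher to 2 lower and 4 higher, beside 0.33% of all genes called lower and 28.2% higher. Ddn (-0.58, limma adjusted p = 0.0477) and Thsd7a (-0.56, adjusted p = 0.0434) were again called lower, here relative to the mean of the 5 slit diaphragm genes. Rhpn1, Sulf1, Pla2r1 and Plce1 no longer passed, at -0.49, -0.22, -0.22 and -0.18. Cdh3 (1.70), Npnt (0.69), Dag1 (0.64) and Iqgap1 (0.53) were called higher (limma adjusted p = 0.0201, 0.033, 0.043 and 0.0469). Npnt and Dag1 serve attachment to the matrix. With the deposited scaling Npnt, Dag1 and Iqgap1 did not pass, and here they lay from 0.53 to 0.69 beside that median of 0.47. Under this scaling no gene of the transcription factor, endothelial and mesangial lists was called, with medians of -0.12, -0.19 and -0.20, and the median of the basement membrane list turned to 0.28 with 3 genes called higher.

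**Figure D5:**
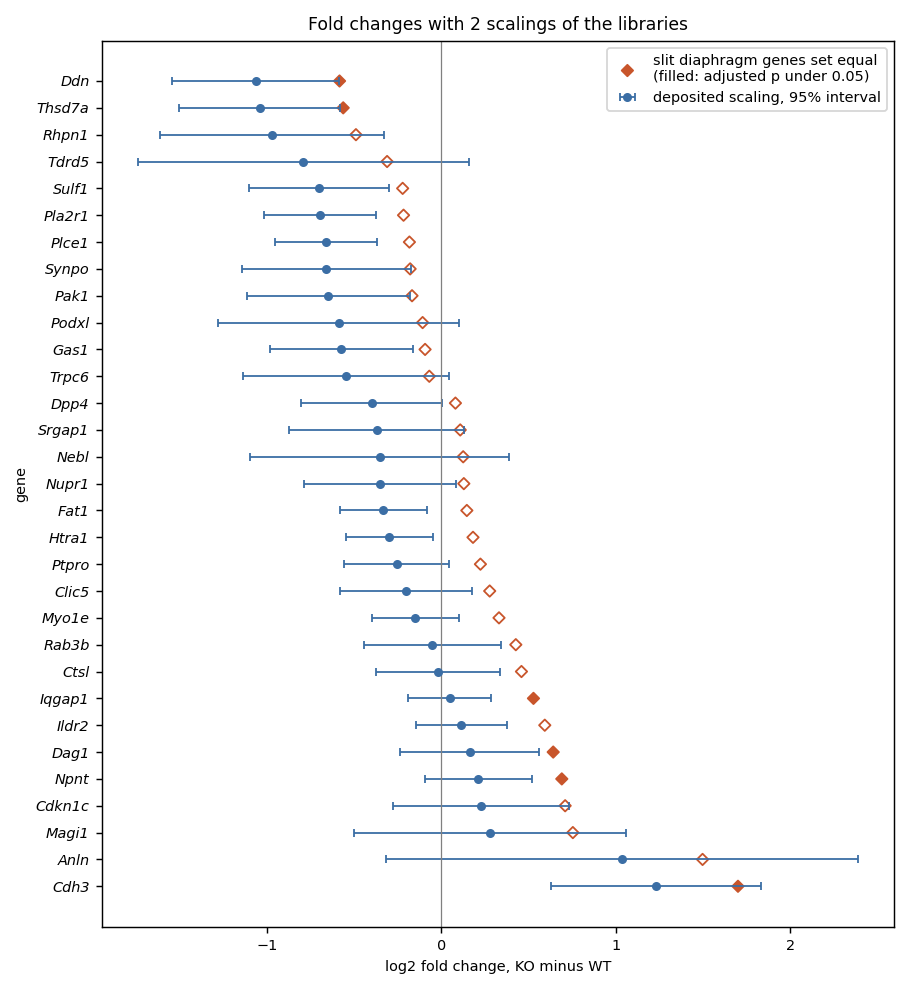
Log2 fold changes of the 31 genes with the deposited scaling (blue, with 95% intervals) and with the 5 slit diaphragm genes set equal (orange diamonds, filled where the adjusted p is under 0.05). Ddn and Thsd7a stay below 0 and filled, while all points shift to the right with a median of 0.13 in place of -0.35.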

How the data were processed

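Glomerular RNA-seq libraries of 3 KO and 3 WT mice were grouped by their titles. The deposited values are a signal, namely read counts that the authors normalised with 1 size factor per library, as the header and the values of the table show. The submitters' processing notes name featureCounts 1.6.4, HISAT2 2.1, DESeq2 2.11.40.6, cutadapt 1.16.5 and bcl2fastq 2.19, with build mm10. Strand setting, annotation and handling of multiply aligned reads were not given in the sources used here, so reads of genes that overlap on opposite strands, as at Cdkn1c, Ctsl and Gas1, may be shared.

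Whole reads were recovered from the steps of each column (100% of values whole within 0.01). RefSeq (GRCm38.p6) named 25275 of 27179 features. limma 3.58.1 (R 4.3.3), with a variance trend and genotype as the only term, was fitted two-sided on log2(normalised count + 1) for genes with a mean of at least 10. This scale understates changes of low genes. edgeR 4.0.16 and DESeq2 1.42.0 used the recovered reads. The fits were tested on simulated data. Other scalings, pseudocounts, filters, a replicate block, a tubule covariate and leaving out each library were tried.

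The members and lists were chosen with earlier results of these data known. Values per library are given for members past the threshold, for Synpo, Podxl, Ptpro, Ctsl, Nupr1 and Dpp4, and for the 5 others with the largest change. Outside the members, Parva, Nphs1, Wt1 and up to 3 genes per other podocyte list are named, and some genes of these lists are not reported here. Merged exons include rare isoforms, which lowers the level per kb of some genes. Libraries of a group differed beyond sampling noise in every pair. The chi-square per degree of freedom was 23.5 for KO-2 with KO-3 and ran from 316 to 846 for the other pairs.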

Additional observations from a re-analysis of the deposited data

How the results depend on the processing

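The 6 lower and 1 higher members were called with pseudocounts of 0.5 and 5, a minimum mean of 1 or 50, TMM and upper quartile scaling, a robust prior, edgeR, DESeq2 and the single-library genes left out, with added calls in some of these. The replicate block called 0 members lower, 0 higher and 0 of all genes in limma (8 lower and 2 higher members, and 4284 genes, at an unadjusted p under 0.05). Same-numbered libraries did not deviate together (correlations of -0.226, -0.191 and -0.013), and pairs with unlike numbers ran from -0.199 to 0.339. With 3 libraries per group this cannot show whether the numbers pair the samples. limma without a trend called 0 members lower, 0 higher and 1 gene in all (5305 genes at an unadjusted p under 0.05), and the tubule covariate 0, 0 and 0 (406 genes). DESeq2 called 12 members lower. Without single libraries the members called lower ranged from 0 to 10, those called higher from 0 to 2, and all genes called from 0 to 4295. The log2 changes of the 6 lower members stayed between -1.27 and -0.55 there. With the slit diaphragm genes set equal, 2 members were lower and 4 higher. The causes were not tested.

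Log2 changes turned sign as follows. With the slit diaphragm genes set equal they were 0.13 for Nebl, 0.33 for Myo1e, 0.28 for Clic5, 0.11 for Srgap1, 0.43 for Rab3b, 0.22 for Ptpro, 0.081 for Dpp4, 0.15 for Fat1, 0.18 for Htra1, 0.46 for Ctsl and 0.13 for Nupr1. With the tubule covariate they were 0.12 for Myo1e, 0.12 for Clic5, 0.34 for Srgap1, 0.13 for Pak1, 0.21 for Rhpn1, 0.18 for Rab3b, 0.047 for Ptpro, 0.039 for Dpp4, -0.97 for Magi1, 0.21 for Trpc6 and 0.44 for Tdrd5. Upper quartile scaling gave -0.0084 for Iqgap1. Without single libraries Iqgap1 ranged from -0.021 to 0.085, Rab3b from -0.20 to 0.066 and Ctsl from -0.13 to 0.051. Anln, at a mean of 31.7 normalised counts and with an SE of 0.58, was not tested with a minimum mean of 50.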
